A study of Rattus norvegicus with 64 samples.

Results

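Lungs of rats that had breathed filtered air were compared between 27 and 7 days after their last day in the exposure chamber. The day 27 group holds 10 rats, 4 from a study in which other rats breathed dust at 10 mg/m3 (the 10 mg study) and 6 from a study with dust at 30 mg/m3 (the 30 mg study). The day 7 group holds 11 rats, 5 and 6 from those studies. These 21 libraries, out of 64 in the series, were taken by label alone (filtered air, day 27 or day 7), and every measured gene was compared with the study as a blocking factor. All rats were male Sprague-Dawley animals, an outbred laboratory strain, that spent 6 hours a day on 4 days in a whole-body inhalation chamber. Both groups received filtered air only, and neither carried an allele or another agent. The remaining libraries come from air rats of day 1 and from rats that breathed dust of fracking sand, the silica-rich sand used in hydraulic fracturing. The day 27 rats had lived longer since the chamber than the day 7 rats, and their ages were not in the sources used here. Age, time since the chamber and collection day cannot be told apart.

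The lung of a young rat keeps enlarging with the body after its alveoli have formed. During this growth fibroblasts lay down collagen, elastic fibres and basement membrane, and cells of all compartments divide at a rate that declines with age. The mature surface is an epithelium of secretory and ciliated cells in the airways and of type 1 and type 2 cells in the alveoli, the flat cells that exchange gas and the cuboidal cells that make surfactant.

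RNA of a piece of lung was depleted of ribosomal RNA, sequenced and counted per gene symbol. The 10 day 27 libraries held 8193543 to 12359518 counted reads and the 11 day 7 libraries held 6388952 to 10259466. Markers of alveolar, airway and endothelial cells were present in every library, among them Sftpc, the surfactant protein C gene, at 8062 to 11838 CPM (median 9599) at day 27 and 6664 to 11177 CPM (median 9360.5) at day 7. Because a piece of lung mixes many cell types, fewer cells of a type and less RNA per cell cannot be told apart. Among 3 library measures, the share of mitochondrial ribosomal RNA (rRNA) and the library total passed the test of the day. The mitochondrial ribosomal RNAs Rnr1 and Rnr2, encoded in the mitochondrial genome, together took 0.456% to 4.00% of the counted reads at day 27 with a median of 1.56%, against 0.447% to 4.43% with a median of 0.733% at day 7. Within-study differences averaged 1.09 percentage points (exact two-sided permutation test within studies, p = 0.0291, adjusted over 3 library measures p = 0.0436). Library totals were also higher at day 27 (adjusted p = 0.0258 in the same test), while the number of genes detected did not pass (adjusted p = 0.794). Day 7 rat 37 of the 10 mg study stood apart with the 4.43% share, and day 7 rat 65 of the 30 mg study had the highest level of albumin, a liver protein gene. Day 27 rat 87 of that study had the highest level of the clock gene Dbp. Without these 3 rats, left out after the values were seen, 2326 genes passed in the comparison that follows, against 1401 with them.

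At day 27, 1401 of 15572 genes tested differed from day 7 at an adjusted p under 0.05 (edgeR's quasi-likelihood F test), which is 9% of them. Levels are given as CPM, TMM-scaled counts per 1000000 counted reads. Of these, 853 genes (5.48%) were higher and 548 (3.52%) were lower. These shares are the reference for every count of a gene list below. The changes were small: the median size was 0.31 on the log2 scale among the rises and 0.29 among the falls, 1170 of the 1401 were under 0.5, and 15 reached 1. Genes of cell division, of the extracellular matrix and the growth factor Igf1 were among the falls, and genes of airway and alveolar epithelium and of cell junctions were among the rises. The days did not overlap within either study for 10 genes that were higher (0.0642% of those tested) and 11 that were lower (0.0706%). Leaving out 1 rat at a time gave 696 calls (without day 27 rat 1 of the 10 mg study) to 2266 calls (without day 7 rat 37). With the mitochondrial rRNA share as a covariate, 24 genes passed, 5 higher and 19 lower, and all 1401 genes kept their sign with fold changes at a median of 0.69 times those without it. The counts of higher and lower calls also depended on the scaling, with 690 higher and 860 lower under upper quartile factors.

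**Figure D1:**
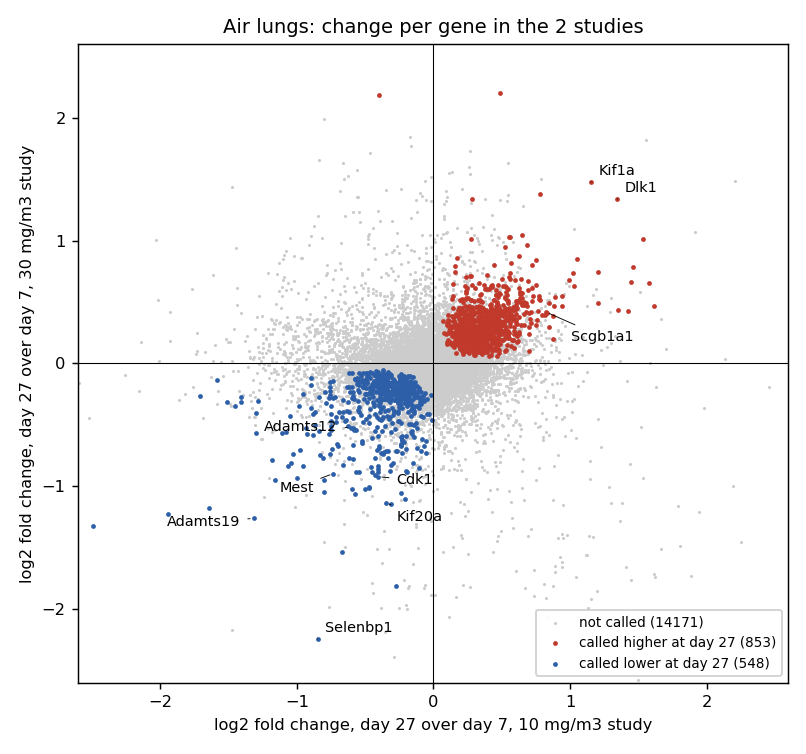
Each point is 1 of 15572 genes, with its log2 fold change of day 27 over day 7 in air lungs of the 10 mg study on the horizontal axis and of the 30 mg study on the vertical axis. The 853 red genes were called higher and the 548 blue genes lower over both studies, and they lie in the matching quadrants apart from 1 gene, which calling over both studies pooled largely fixes; 22 genes, none of them called, fall outside the axes.

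Genes of mitosis were lower at day 27. Of the 40 genes of the mitosis list, all of them tested, 23 fell and 0 rose, with a list median of -0.48 on the log2 scale, while the median of all genes tested was -0.01. Cdk1, the kinase that drives entry into mitosis, had 4.80 to 7.59 CPM (median 5.92) at day 27 and 6.17 to 11.5 CPM (median 10.2) at day 7. Cdk1 changed by -0.70 ± 0.11 (log2 fold change ± SE, adjusted p = 0.00175). The ranges overlapped across studies, but in the 30 mg study every day 27 rat was below every day 7 rat. Cenpf, a kinetochore protein, had 13.1 to 22.1 CPM (median 15.6) at day 27 and 17.9 to 28.7 CPM (median 24.4) at day 7. Cenpf changed by -0.58 ± 0.10 (log2 fold change ± SE, adjusted p = 0.00306). Ccnb1, the cyclin B1 partner of Cdk1, had 2.29 to 3.84 CPM (median 2.88) at day 27 and 3.14 to 7.90 CPM (median 4.37) at day 7. Ccnb1 changed by -0.68 ± 0.13 (log2 fold change ± SE, adjusted p = 0.00712). Kif20a, a kinesin of the dividing cell's midzone, had 3.04 to 6.13 CPM (median 4.89) at day 27 and 3.14 to 12.8 CPM (median 7.66) at day 7. Kif20a changed by -0.81 ± 0.16 (log2 fold change ± SE, adjusted p = 0.00758). As with Cdk1, these 3 genes showed no overlap between days in the 30 mg study and overlapping ranges in the 10 mg study. The share of all genes tested that were apart in the 30 mg study alone was not counted, so this separation has no reference. Mki67, the gene of the proliferation marker Ki-67, averaged 35.7 ± 8.63 CPM at day 27 and 48.7 ± 6.60 CPM at day 7 (SD, n = 10 and 11; log2 fold change -0.46, SE 0.11, adjusted p = 0.0207). Top2a, the topoisomerase that untangles chromosomes, fell as well (log2 fold change -0.49, adjusted p = 0.0411). The list's summed level was 233 to 378 CPM at day 27 and 251 to 469 CPM at day 7. Here and below, summed levels of lists are scaled by library total alone, without TMM.

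The promoters of the mitosis genes with the smallest p are shown because genes of the late cell cycle commonly carry a cell cycle homology region (CHR, TTTGAA, or TTCAAA on the other strand) near the start of transcription, often beside CCAAT boxes (CCAAT, or ATTGG on the other strand). The sequences are RefSeq's, build GRCr8, from 250 bases before to 50 after the annotated start, and run 5′ to 3′ in the direction of the gene. Capitals mark matches to either motif on either strand.
Cdk1 (chr20:19265043-19265342, plus strand): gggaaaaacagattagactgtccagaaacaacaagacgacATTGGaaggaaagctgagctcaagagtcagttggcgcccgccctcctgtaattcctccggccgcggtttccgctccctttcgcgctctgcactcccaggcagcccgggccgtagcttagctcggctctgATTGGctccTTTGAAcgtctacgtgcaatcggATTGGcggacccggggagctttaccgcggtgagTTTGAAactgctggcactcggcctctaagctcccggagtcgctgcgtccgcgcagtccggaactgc
Cenpf (chr13:103760837-103761136, minus strand): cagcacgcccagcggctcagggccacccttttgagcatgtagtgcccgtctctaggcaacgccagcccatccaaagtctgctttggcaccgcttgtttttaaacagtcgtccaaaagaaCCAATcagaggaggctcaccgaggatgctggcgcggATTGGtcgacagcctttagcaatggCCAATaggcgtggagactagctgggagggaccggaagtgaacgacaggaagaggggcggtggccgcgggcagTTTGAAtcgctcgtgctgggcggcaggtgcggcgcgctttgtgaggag
Ccnb1 (chr2:33655176-33655475, minus strand): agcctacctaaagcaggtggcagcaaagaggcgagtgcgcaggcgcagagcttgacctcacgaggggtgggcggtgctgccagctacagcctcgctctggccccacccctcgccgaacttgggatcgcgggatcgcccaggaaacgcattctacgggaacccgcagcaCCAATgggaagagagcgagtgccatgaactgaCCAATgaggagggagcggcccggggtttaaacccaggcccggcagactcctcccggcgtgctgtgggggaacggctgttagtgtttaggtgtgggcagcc
Kif20a (chr18:26504172-26504471, plus strand): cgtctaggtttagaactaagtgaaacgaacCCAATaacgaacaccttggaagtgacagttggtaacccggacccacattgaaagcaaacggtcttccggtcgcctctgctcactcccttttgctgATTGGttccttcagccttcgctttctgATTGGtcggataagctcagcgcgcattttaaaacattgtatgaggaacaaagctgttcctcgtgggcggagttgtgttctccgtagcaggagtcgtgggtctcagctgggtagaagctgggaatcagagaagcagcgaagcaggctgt
Cdk1 carries 2 CHR matches and 3 CCAAT matches and Cenpf carries 1 and 3. Ccnb1 has 0 CHR and 2 CCAAT matches in this window, and Kif20a has 0 and 3. Of the 23 mitosis genes that fell, 22 had a promoter in the table; 16 of these (72.7%) held TTTGAA and 16 (72.7%) held CCAAT on either strand, and 12 (54.5%) held both. Among all 27457 promoters, 18.1% held TTTGAA, 37.7% held CCAAT and 7.25% held both. Among the promoters of all genes tested, 12.1%, 37.4% and 5.02% did. Of all 40 mitosis genes 36 had a promoter, and 75% of these held TTTGAA, whether or not the gene fell.

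Of 37 DNA replication genes tested, 3 fell (3.52% of all genes tested did) and 0 rose, with a median of -0.17. Ccne2, the cyclin E2 of S phase entry, fell at -0.77 (adjusted p = 0.00924). The other 2 were the replicative helicase subunit Mcm4 at -0.30 (adjusted p = 0.0140) and the cell cycle transcription factor E2f1 at -0.33 (adjusted p = 0.0440). Among clustered histone genes, a group added after values were seen, 13 of 28 tested fell and 0 rose, with a median of -0.13 in the 10 mg study and -0.61 in the 30 mg study. Hist1h3a, a histone H3 gene, had 8.87 to 17.8 CPM (median 14.1) at day 27 and 11.2 to 33.3 CPM (median 20.9) at day 7. Hist1h3a changed by -0.65 ± 0.11 (log2 fold change ± SE, adjusted p = 0.00256), with -0.32 in the 10 mg study and -0.88 in the 30 mg study. Hist1h2bl, an H2B gene, was among the 12 largest falls of all at -0.94 (adjusted p = 0.00754), and Hist1h2ao (log2 fold change -0.39, adjusted p = 0.00900) and Hist1h2bk (log2 fold change -0.55, adjusted p = 0.0106) fell too. Histone genes are near-identical copies, so which of them a read belongs to is uncertain. Further cell cycle genes stood among the 12 largest falls: Sgol2, which shields centromeric cohesin, at -0.96 (adjusted p = 0.00168), and E2f7, a repressor of cell cycle genes, at -0.88 (adjusted p = 0.00957). Pbk, a mitotic kinase, fell at -0.84 (adjusted p = 0.0132) and Fam64a, a gene of the metaphase to anaphase step, at -1.19 (adjusted p = 0.0192). Sgol2 did not overlap between days in either study, with 2.51, 3.88, 4.14 and 5.51 CPM in the 10 mg study at day 27 and 7.88, 9.14, 9.59, 7.61 and 5.94 CPM at day 7. Cdkn1b, the p27 inhibitor of the cell cycle, rose by 0.27 (adjusted p = 0.00635). Adding the mitochondrial rRNA share as a covariate left 1 of the 23 mitosis calls, Cdk1 (-0.79, adjusted p = 0.0276), with the list median at -0.43, and 1 of the 13 histone calls, Hist1h3a. Without day 27 rat 1 of the 10 mg study 14 of the 40 mitosis genes passed, and without day 7 rat 34 or 36 of that study, or day 7 rat 68 or day 27 rat 81 of the 30 mg study, 15 did. The histone count was 8 without day 7 rat 36 of the 10 mg study or day 27 rat 82 of the 30 mg study.

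**Figure D2:**
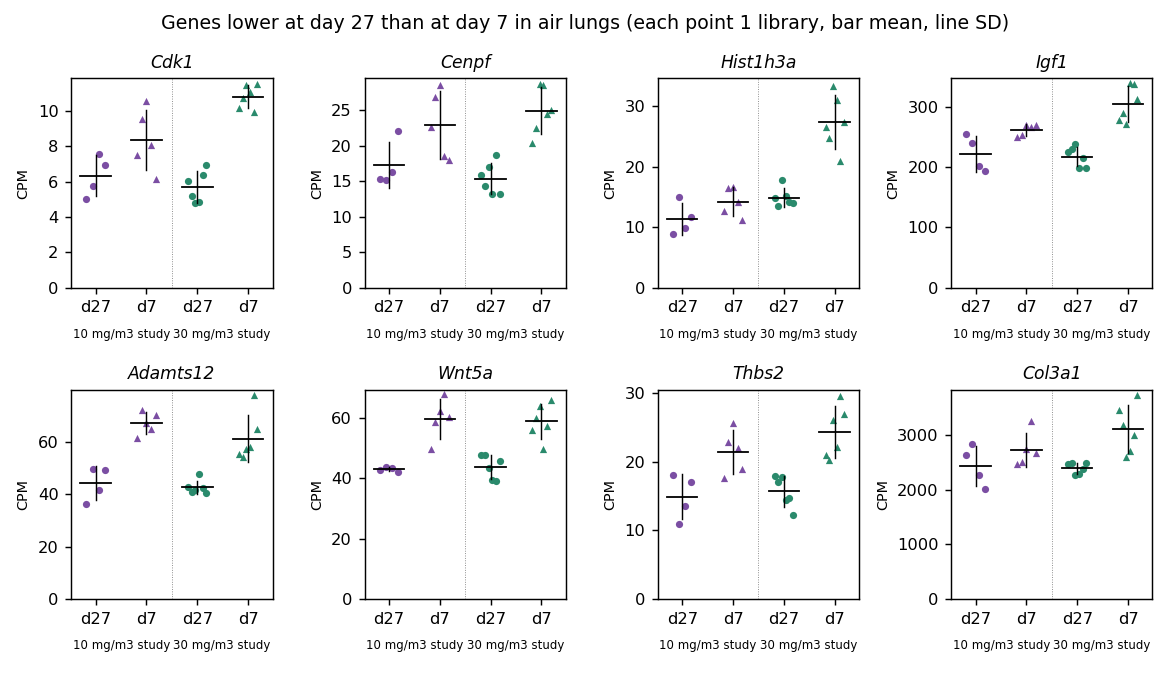
Each panel shows 1 gene in CPM (vertical axis, from 0) for every air library, day 27 left of day 7, the 10 mg study in purple and the 30 mg study in green; bars are means and lines are SDs over 4, 5, 6 and 6 rats. Adamts12 and Wnt5a show no overlap between the days in either study, while the other 6 genes are apart in the 30 mg study and overlap in the 10 mg study. The share of all genes apart in the 30 mg study alone was not counted.

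The growth factor Igf1 fell while 4 genes of the IGF and growth hormone axis, its receptor among them, rose. Igf1, insulin-like growth factor 1, had 194 to 255 CPM (median 220.4) at day 27 and 249 to 339.6 CPM (median 272) at day 7. Igf1 changed by -0.38 ± 0.06 (log2 fold change ± SE, adjusted p = 0.00175). It kept its call with the mitochondrial rRNA covariate (-0.42, adjusted p = 0.0240). Of the 19 genes of the IGF and growth hormone axis tested, Igf1 was the 1 that fell and 4 rose. The receptors Igf1r at 0.28 (adjusted p = 0.0270) and Insr at 0.27 (adjusted p = 0.0217) were among these. The others were the adaptor Irs2 at 0.35 (adjusted p = 0.0319) and Stat5a, which carries growth hormone signals to the nucleus, at 0.36 (adjusted p = 0.0104). With the mitochondrial rRNA covariate 0 of these 4 rises passed, with Igf1r at 0.16 and Insr at 0.18. Leaving out 1 rat at a time gave 2 to 5 rises in the list. Igf2, the fetal growth factor, was at 4.08 to 11.3 CPM (median 7.19) at day 27 and 4.73 to 8.47 CPM (median 6.47) at day 7 and did not pass (adjusted p = 0.317). Imprinted genes of the fetal growth network went both ways, with 3 of 15 tested falling and 3 rising. Mest fell, with 2.55 to 6.15 CPM (median 5.08) at day 27 and 2.85 to 13.3 CPM (median 6.91) at day 7. Mest changed by -0.83 ± 0.19 (log2 fold change ± SE, adjusted p = 0.0142). Grb10, an adaptor that restrains insulin signalling, fell at -0.23 (adjusted p = 0.0120), as did the amino acid transporter Slc38a4 at -0.48 (adjusted p = 0.0433). Dlk1, a Notch-like protein of progenitor cells, had the largest rise of any named gene. In the 10 mg study it had 25.7, 5.77, 12.1 and 4.58 CPM at day 27 and 2.55, 1.85, 4.47, 8.09 and 6.84 CPM at day 7. It had 4.58 to 25.7 CPM (median 14.8) at day 27 and 1.85 to 12.3 CPM (median 5.42) at day 7 over both studies. Dlk1 changed by 1.34 ± 0.31 (log2 fold change ± SE, adjusted p = 0.0150). Its ranges overlapped in both studies. The growth inhibitor Cdkn1c rose by 0.30 (adjusted p = 0.0231) and Gnas, the stimulatory G protein, by 0.25 (adjusted p = 0.0353).

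Wnt5a, a secreted ligand of lung mesenchyme that acts in alveolar growth, fell in both studies with no overlap. In the 10 mg study it had 42.9, 43.7, 43.4 and 42.1 CPM at day 27 and 49.7, 58.7, 62.2, 67.9 and 60.3 CPM at day 7. Over both studies it had 39.02 to 47.7 CPM (median 43.4) at day 27 and 49.7 to 67.9 CPM (median 60.05) at day 7. Wnt5a changed by -0.45 ± 0.06 (log2 fold change ± SE, adjusted p = 0.000241). Among genes named by the fixed rule, it was 1 of 4, with Adamts9, Adamts12 and Fbn1, that passed in all 38 alternative fits of both studies together. Fits of 1 study alone are not among these, and that of the 10 mg study called 0 genes. Of the 35 genes of the Wnt, Hedgehog, FGF, VEGF and retinoic acid list tested, 4 rose and Wnt5a alone fell. Its relative Wnt5b rose by 0.50 (adjusted p = 0.0435) and the Wnt target Axin2 by 0.28 (adjusted p = 0.0491). The other 2 rises were the transcription factor Tcf7 at 0.35 (adjusted p = 0.0206) and the receptor Fgfr2, which epithelium uses to read FGF signals, at 0.21 (adjusted p = 0.0284).

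A subset of matrix genes fell, led by proteoglycans, basement membrane chains and thrombospondin 2. Of 24 matrix glycoprotein and proteoglycan genes tested, 9 fell and 1, Smoc2 at 0.28 (adjusted p = 0.0284), rose. The list's summed level, scaled by library total alone, was 5187 to 5922 CPM at day 27 and 5996 to 6780 CPM at day 7, a narrow gap. Thbs2, thrombospondin 2, had 10.9 to 18.1 CPM (median 15.9) at day 27 and 17.6 to 29.5 CPM (median 22.1) at day 7. Thbs2 changed by -0.58 ± 0.10 (log2 fold change ± SE, adjusted p = 0.00241). Vcan, the large proteoglycan versican, had 32.02 to 62.9 CPM (median 43.2) at day 27 and 44.9 to 115 CPM (median 67.9) at day 7. Vcan changed by -0.75 ± 0.15 (log2 fold change ± SE, adjusted p = 0.00870). Tenascin C (Tnc) at -0.52 (adjusted p = 0.0111), periostin (Postn) at -0.30 (adjusted p = 0.0262) and the collagen-binding lumican (Lum) at -0.45 (adjusted p = 0.0209) fell as well. The basement membrane components Lama2 at -0.35 (adjusted p = 0.00924), Lama4 at -0.25 (adjusted p = 0.00360), Lamb1 at -0.21 (adjusted p = 0.0219) and Nid1 at -0.31 (adjusted p = 0.00957) make up the rest of the 9. With the mitochondrial rRNA covariate Thbs2 alone of the 9 passed, and the list median was -0.21 with it and -0.20 without it.

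Of 21 collagen genes tested, 4 fell and 1 rose. Col3a1, a fibrillar collagen of interstitium and vessels, had 2013 to 2837 CPM (median 2419) at day 27 and 2474 to 3742 CPM (median 2740.1) at day 7. Col3a1 changed by -0.29 ± 0.07 (log2 fold change ± SE, adjusted p = 0.0219). Col14a1 at -0.35 (adjusted p = 0.0359), Col6a3 at -0.28 (adjusted p = 0.0326) and Col4a5 at -0.18 (adjusted p = 0.0228) fell too. Col1a1, the main fibrillar collagen of scar and bone, had 309 to 517 CPM (median 405) at day 27 and 285 to 798 CPM (median 496) at day 7 and did not pass (log2 fold change -0.37, adjusted p = 0.127). Col13a1, a membrane-bound collagen of alveolar fibroblasts, rose by 0.41 (adjusted p = 0.0359). The count of 4 was 1 without day 7 rat 70 or day 27 rat 85 of the 30 mg study. Among 21 genes of collagen processing, 4 fell and 0 rose. These were the crosslinking oxidases Loxl2 at -0.43 (adjusted p = 0.00469) and Lox at -0.25 (adjusted p = 0.0228). The hydroxylases Plod2 and P4ha1 fell at -0.37 (adjusted p = 0.00374) and -0.25 (adjusted p = 0.0465). Of 15 elastic fibre genes, the microfibril genes Fbn1, fibrillin 1, at -0.35 (adjusted p = 0.00360) and Mfap2 at -0.48 (adjusted p = 0.0231) fell and Ltbp4, a binder of latent TGF-beta, rose by 0.55 (adjusted p = 0.0252). Elastin itself, Eln, had 451 to 617 CPM (median 530.5) at day 27 and 259.5 to 931 CPM (median 608) at day 7 and did not pass (adjusted p = 0.394).

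Secreted metalloproteases of the Adamts family, which cut proteoglycans and procollagen, fell in 6 of 15 tested, with 0 rising; the family was singled out after values were seen. Adamts12 had 36.1 to 49.4 CPM (median 41.97) at day 27 and 54.1 to 77.7 CPM (median 64.7) at day 7, with no overlap over both studies. Adamts12 changed by -0.56 ± 0.07 (log2 fold change ± SE, adjusted p = 5.56e-05). Adamts9, a protease of versican, had 72.5 to 94.6 CPM (median 78.2) at day 27 and 92.9 to 139 CPM (median 117) at day 7, apart within each study, and the smallest p of any gene. Adamts9 changed by -0.55 ± 0.05 (log2 fold change ± SE, adjusted p = 2.36e-06). Adamts19 had the second largest fall of any named gene, from a low level: 0.434 to 1.77 CPM (median 0.930) at day 27 and 0.660 to 4.24 CPM (median 2.58) at day 7. Adamts19 changed by -1.29 ± 0.26 (log2 fold change ± SE, adjusted p = 0.00755). Adamts6 at -0.56 (adjusted p = 0.0191), Adamts17 at -0.41 (adjusted p = 0.0231) and Adamts10 at -0.39 (adjusted p = 0.0437) fell as well. Of 19 matrix proteases and inhibitors, the gelatinase Mmp2 fell beside Adamts9 (log2 fold change -0.27, adjusted p = 0.00889), and Mmp15, a membrane-bound protease, rose by 0.39 (adjusted p = 0.0425).

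Airway and alveolar epithelial genes were higher at day 27 in small numbers. Of 17 airway secretory genes tested, 3 rose and 0 fell. Scgb1a1, the secretoglobin of club cells, had 2294 to 5243 CPM (median 2915) at day 27 and 1383 to 2656 CPM (median 1947) at day 7. Scgb1a1 changed by 0.59 ± 0.13 (log2 fold change ± SE, adjusted p = 0.0109), and day 27 rat 1 of the 10 mg study was the highest of all. Pigr, which carries immunoglobulin A across epithelium, had 753 to 1591 CPM (median 1081) at day 27 and 635 to 954 CPM (median 812) at day 7. Pigr changed by 0.40 ± 0.10 (log2 fold change ± SE, adjusted p = 0.0218). Aldh1a1, a retinaldehyde dehydrogenase, rose by 0.16 (adjusted p = 0.0483). The list's summed level was 4006 to 7385 CPM at day 27 and 2814 to 4271 CPM at day 7, with a slight overlap. The median of the 17 genes was 0.59 on the log2 scale in the 10 mg study and -0.18 in the 30 mg study, so the list as a whole was not higher in both. Of 27 ciliated cell genes 26 had a fold change above 0, but 2 passed, against 5.48% of all genes tested that rose. These were Ccdc40, which assembles the ciliary beat apparatus, at 0.64 (adjusted p = 0.0209) and the axonemal adenylate kinase Ak7 at 0.43 (adjusted p = 0.0417).

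In the alveoli, 4 of 21 type 2 cell and surfactant genes rose and 0 fell. Slc34a2, the phosphate transporter of type 2 cells, had 1908 to 2814 CPM (median 2246) at day 27 and 1550.3 to 2157 CPM (median 1868) at day 7. Slc34a2 changed by 0.29 ± 0.07 (log2 fold change ± SE, adjusted p = 0.0136). Sftpb, surfactant protein B, rose by 0.22 (adjusted p = 0.0335), the fatty acid synthase Fasn by 0.37 (adjusted p = 0.0219) and the transcription factor Etv5 by 0.34 (adjusted p = 0.0307). Sftpc did not pass (log2 fold change 0.05, adjusted p = 0.730). Of 20 type 1 cell genes, 3 rose and 0 fell. The water channel Aqp5 had 347 to 486 CPM (median 397) at day 27 and 227 to 371 CPM (median 318) at day 7. Aqp5 changed by 0.34 ± 0.08 (log2 fold change ± SE, adjusted p = 0.0120). The other 2 were Rtkn2 at 0.20 (adjusted p = 0.0364) and the kinase anchor Akap5 at 0.18 (adjusted p = 0.0305). The median of the type 2 list was 0.23 in the 10 mg study and 0.03 in the 30 mg study.

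Genes of epithelial cell junctions, a list added after values were seen, included 18 that rose and 0 that fell of 49 tested, with a median of 0.21 on the log2 scale. Dsp, the desmosomal plaque protein desmoplakin, had 264 to 346 CPM (median 326) at day 27 and 203 to 278 CPM (median 261) at day 7. Dsp changed by 0.39 ± 0.06 (log2 fold change ± SE, adjusted p = 0.00168). Cgn, cingulin of tight junctions, had 66.6 to 95.05 CPM (median 81.1) at day 27 and 40.3 to 68.95 CPM (median 55.9) at day 7. Cgn changed by 0.51 ± 0.08 (log2 fold change ± SE, adjusted p = 0.00228). The desmosome genes Pkp3 at 0.54 (adjusted p = 0.00554), Ppl at 0.48 (adjusted p = 0.0111) and Evpl at 0.52 (adjusted p = 0.0241) rose further. The adhesion genes Cdh1, E-cadherin, at 0.27 (adjusted p = 0.0398) and Epcam at 0.22 (adjusted p = 0.0486) rose as well. Dsp, Cgn and Pkp3 passed within each study in 1 model of the 4 groups with a shared estimate of the spread. With the libraries of the 10 mg study in a fit of their own, 0 genes passed. The count of 18 was 11 without day 27 rat 1 of the 10 mg study, day 7 rat 69 or day 27 rat 81 of the 30 mg study. It was 0 with the mitochondrial rRNA covariate, where the median was 0.15 and 40 of 49 were above 0. Scgb1a1, Pigr, Slc34a2 and Aqp5 likewise passed no longer with that covariate, which lowered their fold changes to 0.36, 0.25, 0.25 and 0.23.

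**Figure D3:**
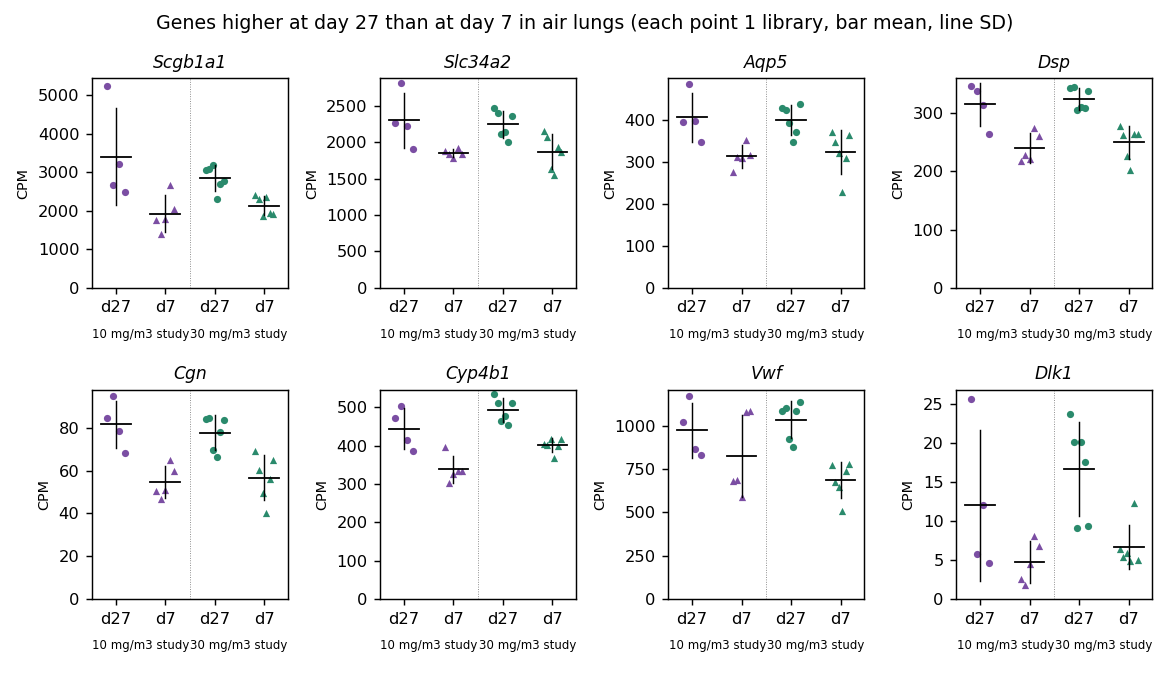
Each panel shows 1 gene in CPM (vertical axis, from 0) for every air library, day 27 left of day 7, the 10 mg study in purple and the 30 mg study in green; bars are means and lines are SDs over 4, 5, 6 and 6 rats. Means are higher at day 27 in both studies for all 8 genes, and the ranges of the days overlap for each gene when the studies are pooled.

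A list of cytochrome P450 genes, flavin monooxygenase genes and related genes included 3 rises and 0 falls among 27 tested. Of all genes tested, 5.48% rose. Cyp4b1, an abundant lung P450 of fatty acids and inhaled compounds, had 387 to 535 CPM (median 476) at day 27 and 303 to 418 CPM (median 397) at day 7. Cyp4b1 changed by 0.34 ± 0.05 (log2 fold change ± SE, adjusted p = 0.00168). It was the 1 rise among the 9 genes named by the fixed rule that passed with the mitochondrial rRNA covariate (0.34, adjusted p = 0.0428). Cyp2s1 rose by 0.81 (adjusted p = 0.0105) and Por, a reductase that feeds electrons to P450 enzymes, by 0.38 (adjusted p = 0.0240). The sterol regulator Srebf2 rose by 0.31 (adjusted p = 0.0317).

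Endothelial genes changed in both directions, with 4 rising and 3 falling of 33 tested. Of all genes tested, 5.48% rose and 3.52% fell. Vwf, the clotting factor stored by endothelium, had 830.1 to 1173 CPM (median 1051) at day 27 and 507 to 1081 CPM (median 687) at day 7. Vwf changed by 0.44 ± 0.11 (log2 fold change ± SE, adjusted p = 0.0219). The VEGF receptors Flt1 at 0.31 (adjusted p = 0.0185) and Kdr at 0.28 (adjusted p = 0.0428) and the phosphatase Ptprb at 0.25 (adjusted p = 0.0332) rose too. Emcn, endomucin of capillaries and veins, was lower at -0.32 (adjusted p = 0.0237), the adrenomedullin receptor Calcrl at -0.21 (adjusted p = 0.0428) and Hpgd, which breaks down prostaglandins, at -0.46 (adjusted p = 0.0170). The angiotensin-converting enzyme Ace, abundant in lung capillaries and listed here with monocyte genes, had 710.4 to 984 CPM (median 888) at day 27 and 472 to 904 CPM (median 649) at day 7. Ace changed by 0.38 ± 0.08 (log2 fold change ± SE, adjusted p = 0.0105). The count of 4 rises in the list ranged from 2 (without any 1 of 8 rats) to 8 (without day 7 rat 37). Of 25 smooth muscle and pericyte genes, Higd1b, a pericyte gene, fell (log2 fold change -0.25, adjusted p = 0.0406) beside Postn, and 0 rose. Of 23 fibroblast genes, Pdgfra, the receptor of alveolar fibroblasts, rose by 0.25 (adjusted p = 0.0210) beside Col13a1, and Meox2 fell (log2 fold change -0.22, adjusted p = 0.0209) beside Col14a1.

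Genes of TGF-beta, BMP and fibrosis signalling rose in 5 of 26 tested and fell in 1, against 5.48% and 3.52% of all genes tested. The ligand Tgfb1 had 19.7 to 37.01 CPM (median 30.2) at day 27 and 16.02 to 29.3 CPM (median 23.1) at day 7. Tgfb1 changed by 0.41 ± 0.13 (log2 fold change ± SE, adjusted p = 0.0434). Its receptors Tgfbr2 and Tgfbr3 rose by 0.22 (adjusted p = 0.0433) and 0.40 (adjusted p = 0.0209). The transducer Smad3 rose by 0.27 (adjusted p = 0.0128) and the inhibitor Smad6 by 0.30 (adjusted p = 0.0414). Fstl1, a secreted glycoprotein of mesenchyme, fell (log2 fold change -0.29, adjusted p = 0.0109). The list's median was 0.01, and the count of 5 was 2 without any 1 of 10 rats and 8 without day 7 rat 37. Nrp2, a receptor of lymphatic endothelium, rose by 0.23 (adjusted p = 0.0205), the 1 call of 8 lymphatic genes.

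Immune cell lists are given against the 5.48% of all genes tested that rose and the 3.52% that fell. In T cells 3 of 33 genes rose and 0 fell: Cd5, a receptor on T cells, had 5.04 to 12.3 CPM (median 8.59) at day 27 and 4.12 to 7.56 CPM (median 6.06) at day 7. Cd5 changed by 0.50 ± 0.14 (log2 fold change ± SE, adjusted p = 0.0298). The T cell transcription factors Bcl11b and Tcf7 rose by 0.44 (adjusted p = 0.0462) and 0.35 (adjusted p = 0.0206). Among 20 alveolar macrophage genes, the lysosomal Ctsd at 0.31 (adjusted p = 0.0137) and Cd68 at 0.22 (adjusted p = 0.0353) and the lipid exporter Abcg1 at 0.25 (adjusted p = 0.0462) rose. Spp1, osteopontin, fell, with 2.187 to 7.71 CPM (median 4.66) at day 27 and 3.31 to 19.8 CPM (median 7.38) at day 7. Spp1 changed by -0.93 ± 0.28 (log2 fold change ± SE, adjusted p = 0.0433). Complement genes rose in 3 of 26, the C1 inhibitor Serping1 at 0.54 (adjusted p = 0.00743), C4b at 0.52 (adjusted p = 0.0155) and clusterin, Clu, at 0.28 (adjusted p = 0.0141). The chemokine Cx3cl1, displayed by epithelium and endothelium, had 28.1 to 48.8 CPM (median 40.5) at day 27 and 14.9 to 35.4 CPM (median 24.1) at day 7. Cx3cl1 changed by 0.71 ± 0.15 (log2 fold change ± SE, adjusted p = 0.00983). The macrophage growth factor Csf1 rose by 0.30 (adjusted p = 0.0255). Antigen processing rose in Tapbp at 0.33 (adjusted p = 0.00990) and the class I gene RT1-S3 at 0.42 (adjusted p = 0.00758), of 23 tested, and Sirpa, an inhibitory receptor of macrophages, at 0.28 (adjusted p = 0.0120). Among 19 plasma cell and germinal centre genes the lipid receptor S1pr2 rose (log2 fold change 0.18, adjusted p = 0.0332) and the secretory pathway gene Fkbp11 fell (log2 fold change -0.35, adjusted p = 0.0170). Of 43 interferon-stimulated genes, Ifi44 fell (log2 fold change -0.37, adjusted p = 0.0439) and 0 rose. Neutrophil, natural killer, B cell, mast cell and dendritic cell lists had 0 calls in edgeR's test in either direction out of 16, 24, 25, 18 and 25 genes tested. Of these 108 genes together, 10 had an unadjusted p under 0.05, and 1 was called by DESeq2 and 1 by limma voom. Among all 15572 genes tested, 4447 had an unadjusted p under 0.05, and DESeq2 called 2129 genes and limma voom 1777.

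Of 22 clock genes 2 rose. Of all genes tested, 5.48% rose and 3.52% fell. The repressor Bhlhe41 had 13.05 to 21.5 CPM (median 18.5) at day 27 and 8.65 to 16.5 CPM (median 10.7) at day 7. Bhlhe41 changed by 0.63 ± 0.11 (log2 fold change ± SE, adjusted p = 0.00256). The clock kinase Csnk1d rose as well (log2 fold change 0.22, adjusted p = 0.0394). The core activator Arntl, at 43.4 to 76.1 CPM (median 70.9) at day 27 and 51.2 to 74.3 CPM (median 68.2) at day 7, did not pass (adjusted p = 0.915). Neither did the output gene Dbp (adjusted p = 0.461), which was highest in day 27 rat 87 of the 30 mg study. The cochaperone Bag3 rose by 0.57 (adjusted p = 0.0155) and the mitochondrial chaperone Hspa9 by 0.20 (adjusted p = 0.0164), while the cochaperone Chordc1 fell (log2 fold change -0.22, adjusted p = 0.0444). Of 32 antioxidant genes 2 rose, near the 5.48% of all genes tested. These were Gpx3 at 0.32 (adjusted p = 0.0428) and Txnrd1 at 0.20 (adjusted p = 0.0437), and the count was 0 to 5 without 1 rat. Of 38 RNA-binding and splicing genes, 5 fell, among them Srsf1 (log2 fold change -0.23, adjusted p = 0.0233) and Hnrnph1 (log2 fold change -0.32, adjusted p = 0.0277). In the same list 2 rose, Srsf4 (log2 fold change 0.33, adjusted p = 0.0322) and Hnrnpl (log2 fold change 0.18, adjusted p = 0.0240). The count of falls was 0 without day 27 rat 1 and 11 without day 27 rat 6 of the 10 mg study. The median of this list was -0.32 in the 10 mg study and -0.03 in the 30 mg study, and in dust lungs 0 of its genes fell and 3 rose. Of the stress and ageing lists, the amino acid carrier subunit Slc3a2 (log2 fold change 0.24, adjusted p = 0.0220) rose. The mitochondrial folate enzyme Aldh1l2 (log2 fold change -0.93, adjusted p = 0.0324), the receptor Eda2r (log2 fold change -0.71, adjusted p = 0.0320) and the gluconeogenic enzyme Pck1 of the fatty acid list (log2 fold change -0.82, adjusted p = 0.0326) fell. Respiratory chain genes had 0 calls of 40 and 6 at an unadjusted p under 0.05, and glucocorticoid-responsive genes 0 of 24 and 3. Immediate early genes had 0 of 30 and 9, all 9 of them higher. Among all 15572 genes tested, 4447 had an unadjusted p under 0.05, a share near that of the immediate early genes and above those of the other lists. Jun, an immediate early transcription factor, had 189 to 382 CPM (median 201) at day 27 and 117 to 235 CPM (median 176) at day 7 (adjusted p = 0.118). DESeq2 called 1, 0 and 3 genes of these lists and limma voom 0, 0 and 1.

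Genes of heart muscle, liver and blood differed widely among rats within each day. The 27 heart muscle genes tested had a median of -0.69 with 0 called, a summed level of 155 to 1161 CPM at day 27 and 237 to 2416 CPM at day 7. Their median was 0.67 in the 10 mg study and -1.40 in the 30 mg study, and Myh6, a heart myosin heavy chain, was at 0 CPM in 1 day 7 library. The 19 liver protein genes had a median of -0.80 with 0 called and summed to 338 to 510 CPM at day 27 and 324 to 1053 CPM at day 7. Their median was -0.13 in the 10 mg study and -1.33 in the 30 mg study. Alb, albumin, had 10.4 to 61.2 CPM (median 24.4) at day 27 and 11.1 to 371 CPM (median 31.9) at day 7, and was highest in day 7 rat 65 (adjusted p = 0.223). Erythroid genes had a median of 0.84 with 0 of 19 called, and their median was -0.10 in the 10 mg study and 1.24 in the 30 mg study. Among them was the globin gene Hbb, with 566 to 2517 CPM (median 876) at day 27 and 666 to 2712 CPM (median 1183) at day 7. The mesothelial, skeletal muscle, platelet, nerve, oesophagus and thymus lists had 0 calls. Over all 17 lists with 0 calls by edgeR, which hold 320 tested genes, 50 had an unadjusted p under 0.05. That share is below the 4447 of all 15572 genes tested. There were 7 calls by DESeq2 and 2 by limma voom in these lists. With the heart muscle level as a covariate 1921 genes passed and with the Alb level 1472.

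The remaining genes of the 12 largest rises and falls were mostly expressed at a few CPM. Kif1a, a kinesin that carries vesicles along axons, had 2.46 to 15.1 CPM (median 8.45) at day 27 and 1.02 to 7.61 CPM (median 2.11) at day 7. Kif1a changed by 1.32 ± 0.33 (log2 fold change ± SE, adjusted p = 0.0211). Rps16, a ribosomal protein gene, had 106 to 320.1 CPM (median 253) at day 27 and 25.4 to 216 CPM (median 119.6) at day 7. Rps16 changed by 1.12 ± 0.29 (log2 fold change ± SE, adjusted p = 0.0262). Among 63 ribosomal protein genes it rose beside Rpl21 (log2 fold change 0.22, adjusted p = 0.0219) and Rpl28 (log2 fold change 0.22, adjusted p = 0.0334). These 3 rises of 63 are near the 5.48% of all genes tested that rose, and the list's median was -0.004. Reads of ribosomal protein genes may be shared with pseudogenes. Rnr2, the mitochondrial large ribosomal RNA, rose by 0.94 (adjusted p = 0.0476). Dmbt1 and Dmbt1-2, symbols of a mucosal defence glycoprotein, rose by 0.83 (adjusted p = 0.0259) and 0.87 (adjusted p = 0.0162); if these are copies of 1 locus, reads may be split between them. Kif19, a kinesin that trims ciliary tips, rose by 0.96 (adjusted p = 0.0297), the ion channel gene Clic6 by 0.91 (adjusted p = 0.0316) and the pacemaker channel Hcn4 by 0.97 (adjusted p = 0.0467). Cbs, which makes cystathionine, rose by 0.93 (adjusted p = 0.0430), the cytochrome b561 relative Cyb561d1 by 0.83 (adjusted p = 0.00758) and the chymotrypsinogen gene Ctrb1 by 0.85 (adjusted p = 0.0228). Among the falls, Selenbp1, a selenium-binding protein, had the largest fitted change (log2 fold change -2.05, SE 0.64, adjusted p = 0.0485), which rests on 1 rat. In the 30 mg study day 7 rat 68 had 22.9 CPM, whereas Selenbp1 was at 0.0994 to 2.61 CPM (median 0.674) at day 27, and without that rat its log2 fold change was -0.72 (adjusted p = 0.225). Tnfrsf4, the T cell costimulator OX40, fell and averaged 0.831 ± 0.420 CPM at day 27 and 1.58 ± 0.510 CPM at day 7 (SD; log2 fold change -0.87, adjusted p = 0.0232). The G protein subunit Gnb3 averaged 0.859 ± 0.299 CPM at day 27 and 1.59 ± 0.458 CPM at day 7 (SD; log2 fold change -0.86, adjusted p = 0.0262). Smim5 at -0.88 (adjusted p = 0.0129) and Pou5f2 at -0.98 (adjusted p = 0.0361) make up the rest.

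**Figure D4:**
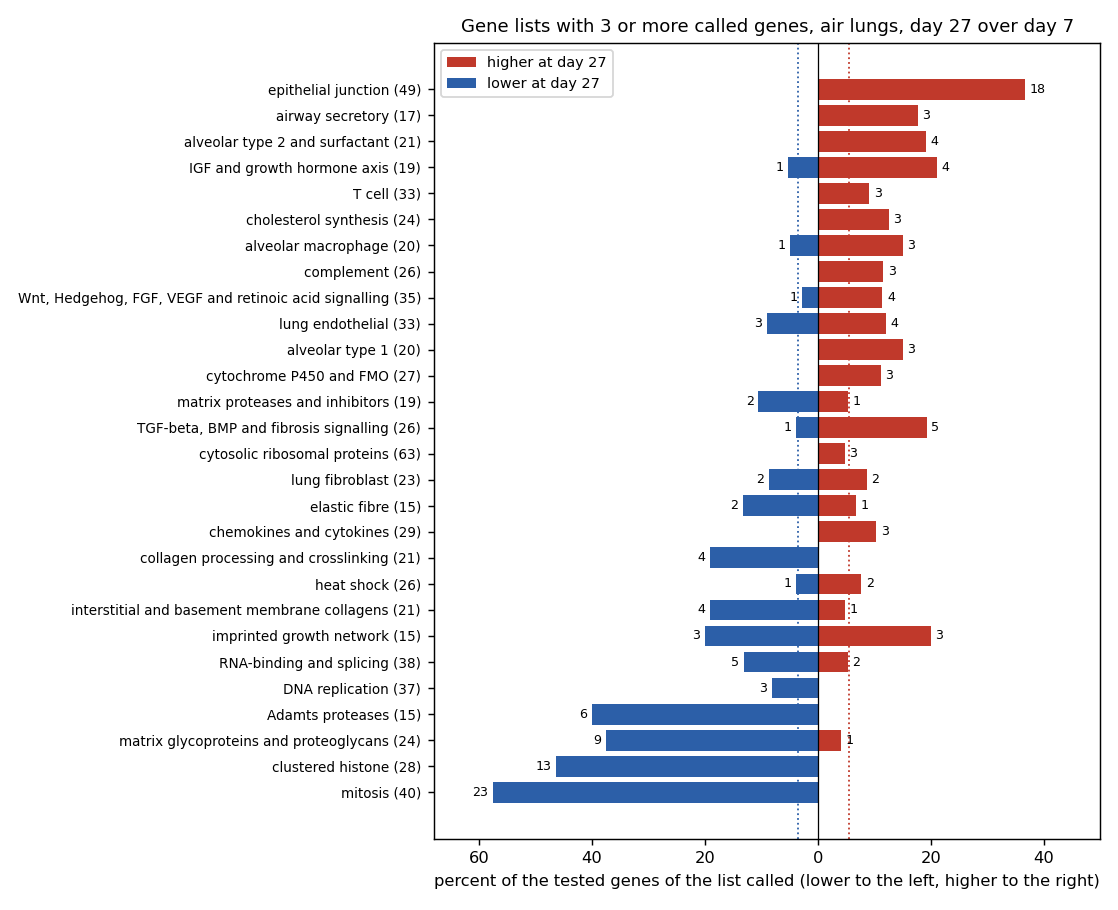
Bars give the percentage of the tested genes of each list (number tested in parentheses) that were called lower (blue, to the left) or higher (red, to the right) at day 27, with the number of genes at the bar's end; lists with 3 or more called genes are shown, ordered by median fold change. Dotted lines mark the 3.52% lower and 5.48% higher of all 15572 genes, and mitosis, clustered histone, matrix glycoprotein and Adamts genes reach farthest to the left and junction genes farthest to the right. The clustered histone, Adamts and junction lists were added after values were seen, which largely fixes their long bars.

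Within the studies taken separately, 1404 genes passed in the 10 mg study (9.02% of those tested) and 229 in the 30 mg study (1.47%). In the 10 mg study 564 (3.62%) were higher and 840 (5.39%) lower, and in the 30 mg study 84 (0.539%) were higher and 145 (0.931%) lower. These come from 1 model of the 4 groups with a shared estimate of the spread. A total of 38 genes passed in both studies in the same direction, 19 higher and 19 lower, and 1, Tma7, in opposite directions. Tma7 was at -2.98 in the 10 mg study and 2.80 in the 30 mg study (difference not past the threshold, adjusted p = 0.0617). Besides Adamts9, Adamts12, Wnt5a, Sgol2, Thbs2, Dsp, Cgn, Pkp3, Cyp4b1 and Bhlhe41, the shared genes include Aspm, a spindle pole gene, at -0.68 (adjusted p = 5.56e-05), the condensin subunit Ncaph at -0.72 (adjusted p = 0.00426) and Cep55, which acts in the last step of cell division, at -0.79 (adjusted p = 0.00360). The collagen-binding integrin Itga2 fell (log2 fold change -0.49, adjusted p = 0.00241), and the growth factor Tgfa (log2 fold change 0.62, adjusted p = 0.00360), the protease inhibitor Spint1 (log2 fold change 0.29, adjusted p = 0.00254) and the semaphorin Sema4a (log2 fold change 0.39, adjusted p = 0.00241) rose. These 7 were chosen after their values were seen. Of them, Aspm (-0.66, adjusted p = 0.00294) and Ncaph (-0.84, adjusted p = 0.0421) passed with the mitochondrial rRNA covariate in edgeR's test, and the others did not. The difference between the studies passed for 1 gene (0.00642% of those tested), the kinase Taok1, at 0.17 in the 30 mg study and -0.24 in the 10 mg study (difference 0.41, adjusted p = 0.0433). That count was 1372 without day 27 rat 6 of the 10 mg study and 0 to 26 without any other rat. With the 9 libraries of the 10 mg study in a fit of their own, 0 genes passed (3304 at an unadjusted p under 0.05), and with the 12 of the 30 mg study in theirs, 490 passed.

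Levels at day 1, scaled over all 32 air libraries, are given as a description. Cdk1 in the 10 mg study was at 10.3 ± 3.66 CPM at day 1, 8.41 ± 1.73 CPM at day 7 and 6.32 ± 1.20 CPM at day 27 (mean ± SD, n = 5, 5 and 4). For the 30 mg study the levels of Cdk1 were 12.6 ± 2.86 CPM at day 1, 10.9 ± 0.708 CPM at day 7 and 5.71 ± 0.896 CPM at day 27 (n = 6 each). Its day 1 mean was above its day 7 mean in both studies, by less than the SD of the day 1 rats. Igf1 in the 10 mg study was at 291 ± 29.2 CPM at day 1, 263 ± 10.3 CPM at day 7 and 221 ± 28.2 CPM at day 27. For the 30 mg study the levels of Igf1 were 336 ± 27.8 CPM at day 1, 306 ± 31.5 CPM at day 7 and 217 ± 15.9 CPM at day 27, with a lower mean at each later day. Wnt5a in the 10 mg study was at 55.6 ± 6.06 CPM at day 1, 60.01 ± 6.72 CPM at day 7 and 42.9 ± 0.609 CPM at day 27. For the 30 mg study the levels of Wnt5a were 57.7 ± 3.49 CPM at day 1, 59.02 ± 5.61 CPM at day 7 and 43.8 ± 3.81 CPM at day 27, so its day 7 mean was above its day 1 mean in both. Scgb1a1 in the 10 mg study was at 1756 ± 609 CPM at day 1, 1933 ± 478 CPM at day 7 and 3393 ± 1255 CPM at day 27. For the 30 mg study the levels of Scgb1a1 were 2024 ± 406 CPM at day 1, 2139 ± 257 CPM at day 7 and 2846 ± 324 CPM at day 27. Dsp in the 10 mg study was at 250.2 ± 23.5 CPM at day 1, 242 ± 26.1 CPM at day 7 and 314 ± 35.7 CPM at day 27. For the 30 mg study the levels of Dsp were 272 ± 62.5 CPM at day 1, 251 ± 26.5 CPM at day 7 and 325 ± 18.7 CPM at day 27. For Wnt5a, Scgb1a1 and Dsp the means of days 1 and 7 differed by less than the larger of their SDs in both studies.

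The same comparison in the 21 dust lungs called 1097 of 15519 genes (7.07%), 535 higher (3.45%) and 562 lower (3.62%). Of the 1400 genes called in air and tested in dust, 1367 (97.6%) had the same sign there, against 72.2% of all genes. Both tests called 412 of them in the same direction, which is 29.4% of the air calls and 37.6% of the dust calls, and 0 were called in the opposite direction. Mitosis genes fell in 11 of 40 in dust lungs (median -0.32) against 23 of 40 in air lungs, and clustered histones in 11 of 29 in dust lungs against 13 of 28 in air lungs. Matrix glycoproteins fell in 9 of 25 in dust lungs against 9 of 24 in air lungs. Junction genes rose in 9 and fell in 1 in dust lungs, against 18 and 0 in air lungs. The air change minus the dust change passed for 0 of 15961 genes, with 1148 at an unadjusted p under 0.05 and 0 calls by DESeq2 and by limma voom. Wnt5a changed by -0.43 in dust lungs and -0.45 in air lungs, Adamts9 by -0.50 and -0.55, Cdk1 by -0.48 and -0.70, Scgb1a1 by 0.24 and 0.59 and Dlk1 by 0.55 and 1.34. The mitochondrial rRNA share in dust lungs, which was not tested, was 2.62% to 3.18% at day 27 and 1.47% to 3.12% at day 7 in the 10 mg study, and 0.445% to 1.66% at day 27 and 0.109% to 0.453% at day 7 in the 30 mg study. In air lungs, the shares were 3.02% to 4.00% at day 27 and 0.447% to 4.43% at day 7 in the 10 mg study, and 0.456% to 1.62% at day 27 and 0.458% to 0.885% at day 7 in the 30 mg study.

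**Figure D5:**
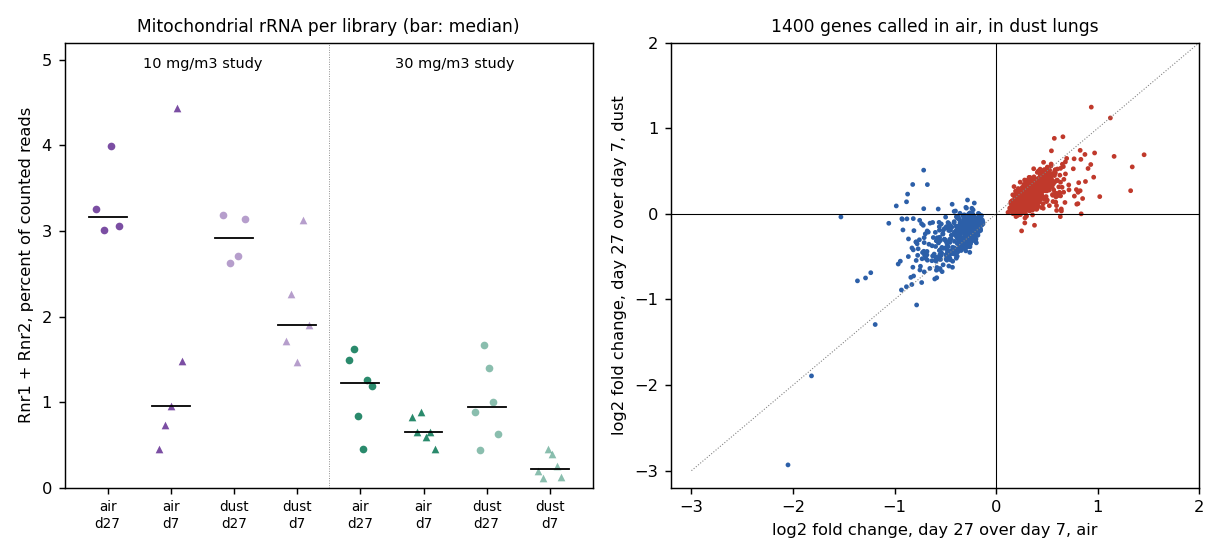
The left panel gives the percentage of counted reads on Rnr1 and Rnr2 in each library by study, air or dust, and day (d27 left of d7), with bars at the medians; in air lungs the median is higher at day 27 in both studies, and day 7 rat 37 of the 10 mg study stands alone at 4.43%. The right panel plots the log2 fold change of day 27 over day 7 in dust lungs (vertical) against that in air lungs (horizontal) for the 1400 genes called in air, of which 1367 have the same sign in both; the dotted line marks equal changes.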

How the data were processed

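Libraries of ribosomal-RNA-depleted total RNA from a piece of lung were made with a stranded kit, per the labels' protocols. The authors deposited whole-number read counts per gene symbol in 1 table for each study. The submitters' processing notes name bcl2fastq 2.19, Trimmomatic 0.35, HISAT2 2.1.0, SAMtools 1.8, HTSeq 0.6.1 and the genome build Rnor 6.0; their roles, the gene annotation and whether counting used strand were not in the sources used here. Without the strand setting, reads of overlapping or antisense genes cannot be told apart, and genes with near-identical copies may share reads.

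Each column was matched to a rat by its title, and samples were grouped by treatment, study and day. The titles give a number to each rat, and replicates are taken as separate animals. The library totals given with the results set the precision, and no count was inferred.

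Genes passing edgeR's expression filter (minimum count 10, minimum total 15) were scaled by TMM and fitted by edgeR 4.0.16 under R 4.3.3 with a quasi-likelihood model of study and day on the 21 air libraries. The F test of day was adjusted by Benjamini-Hochberg over all genes tested at a threshold of 0.05, and standard errors were taken from the fold change and F. "Rose" and "fell" mean past this threshold. Levels are TMM-scaled counts per 1000000 counted reads (CPM), not divided by gene length, so levels of different genes are not compared. Summed levels of lists are scaled by library total alone. Within-study values and the difference between studies came from a model with 1 mean per group, and the same comparison was run in dust lungs. Library measures were tested by exact permutation of the day within studies (116424 assignments). The scripts were tested on simulated data. DESeq2 1.42.0, limma 3.58.1 and sva 3.50.0 served as alternatives, beside other scalings, filters, covariates, sets of libraries and leaving out each rat.

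The members and gene lists were chosen with earlier results of these data known, and 3 lists were added after values were seen. Named genes are the 12 largest rises and 12 largest falls among called genes of at least 1 CPM with the same sign in both studies, up to 4 called members of a list by smallest p, and a fixed panel; other called members named to complete a list's count were chosen after their values were seen. Genes known only by a locus number were counted but not named, and a few named genes are not reported here. Promoters were matched by symbol to RefSeq's table for GRCr8.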

Additional observations from a re-analysis of the deposited data

Results flagged for a closer look

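The 3 library measures and most of the genes named by the fixed rule were examined in each study and day for a rat far from the others. In 41 of 600 such groups of 4 to 6 rats, the gap of 1 rat passed Dixon's 95% limit. Genes named in the text outside that rule were not examined. Chance gives about 1 in 20 groups, and genes of 1 rat are not independent of each other. No explanation was tested. Day 27 rat 1 of the 10 mg study was highest for Ak7 at 33.7, Ccdc40 at 37.7, Cdkn1c at 34.04, Ctrb1 at 5.64, Igf1r at 86.7, Jun at 382 and Mest at 5.32 CPM and lowest for Hpgd at 56.1 CPM. Day 27 rat 5 of the 10 mg study was highest for Pdgfra at 428 CPM and lowest for Dmbt1 at 16.3 CPM. Day 27 rat 6 of the 10 mg study was highest for Cenpf at 22.1 CPM. Day 27 rat 81 of the 30 mg study was lowest for Mest at 2.55 CPM. Day 27 rat 83 of the 30 mg study was lowest for Mmp2 at 268 CPM. Day 27 rat 84 of the 30 mg study was highest for Adamts12 at 47.5 CPM. Day 27 rat 85 of the 30 mg study was lowest for Loxl2 at 24.1 CPM. Day 27 rat 87 of the 30 mg study was highest for Dbp at 27.03 and Selenbp1 at 2.61 CPM and lowest for Arntl at 43.4 CPM. Day 7 rat 34 of the 10 mg study was highest for E2f1 at 13.4 and Higd1b at 32.2 CPM. Day 7 rat 36 of the 10 mg study was highest for Aldh1a1 at 496 and Spp1 at 19.8 CPM and lowest for Cbs at 0 CPM. Day 7 rat 37 of the 10 mg study was highest for Ccdc40 at 23.9, Kif19 at 4.44 and Myh6 at 288 CPM and lowest for Hpgd at 59.9 CPM. Day 7 rat 65 of the 30 mg study was highest for Alb at 371 CPM. Day 7 rat 68 of the 30 mg study was highest for Kif1a at 5.69, P4ha1 at 194 and Selenbp1 at 22.9 CPM. Day 7 rat 69 of the 30 mg study was highest for Hist1h2ao at 31.8 and Mcm4 at 48.2 CPM and lowest for Abcg1 at 164, Flt1 at 160.0 and Hnrnpl at 146 CPM. Day 7 rat 70 of the 30 mg study was highest for Dlk1 at 12.3 and Dmbt1-2 at 22.1 CPM. Day 7 rat 71 of the 30 mg study was highest for Lox at 192 CPM and lowest for Aldh1a1 at 407 CPM. Day 7 rat 37 of the 10 mg study also had the mitochondrial rRNA share of 4.43%, against at most 1.48% in the other day 7 rats of that study.

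The kinase gene Taok1 differed in its change between studies, by 0.41 on the log2 scale, with 0.17 in the 30 mg study and -0.24 in the 10 mg study (edgeR's quasi-likelihood test of the difference, adjusted p = 0.0433). It was the 1 gene of 15572 to pass.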

How the results depend on the processing

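The count of 1401 genes in air lungs stayed within 1.5 times (1081 to 1921) under RLE and upper quartile scaling, without a filter on low counts and with a minimum of 30, by limma voom, in a fit of all 64 libraries, without robust estimation, and with heart muscle, Alb or clock covariates or 1 surrogate variable. It was 2129 by DESeq2, 884 in a fit of all 32 air libraries, 789 without the study block, 24 with the mitochondrial rRNA covariate, 16 with 4 covariates together, 2326 without rats 37, 65 and 87, and 38 where both studies had to pass. The last 3, and no others, were chosen after seeing the data. Leaving out 1 rat gave 696 to 2266, with 9 of 21 fits outside 1.5 times. Within the 10 mg study the count was 649 in the 32-library fit, 0 with its own libraries alone, and 2 to 3078 without 1 rat. Within the 30 mg study it was 750 by DESeq2, 63 in the 32-library fit, 490 with its own libraries alone, and 49 to 367 without 1 rat. The difference between studies held for 0 genes without a filter, in the 32-library fit and without the 3 rats, 335 by DESeq2, 8 in the 64-library fit, and 0 to 1372 without 1 rat. In dust lungs the count was 698 without a filter, 1787 by DESeq2, 203 in the 64-library fit, and 435 to 1461 without 1 rat. Air minus dust gave 0 to 4 without 1 rat. The cause of these moves was not tested.

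Of 139 called genes named by the rule, 82 kept their call in every fit without 1 rat and 9 with the mitochondrial rRNA covariate. Under every alternative fit of both studies together 4 kept it, and 0 reversed. Fits of 1 study alone were not part of this count. No paired analysis was possible because the rat numbers are all different and the days share none. With 4 to 6 rats a group and 6388952 to 12359518 reads a library, changes in genes of a few CPM are imprecise.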
